A study of Homo sapiens with 8 samples.

Results

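The miR-17-92 cluster is a run of 6 microRNA (miRNA) hairpins inside the long non-coding RNA gene MIR17HG. The 10 mature miRNAs described here were taken by name from the count tables, which hold 2575 names per library: both arms of the miR-17, miR-18a, miR-20a and miR-92a-1 hairpins, and the 3p arms of miR-19a and miR-19b. In the tables the names carry the prefix hsa- (hsa-miR-17-5p, hsa-miR-18a-5p, hsa-miR-19a-3p, hsa-miR-20a-5p, hsa-miR-92a-3p and so on), which is left out below. All 10 names were found, and all 10 passed the filter on low counts that left 480 miRNAs to test. Small RNA was sequenced from HCT116, an established human colorectal cancer cell line, at passages 16 to 19. The 4 ETBF libraries came from cells grown together with ETBF, the toxin-secreting enterotoxigenic form of the gut bacterium Bacteroides fragilis, over 6 hours at a multiplicity of infection of 500. The 4 control libraries, titled untreated, came from HCT116 cells given bacterial medium free of the bacterium, per the protocol in the labels. The labels do not state that replicates were separate cultures, so p-values measure only the spread between these libraries, which may be technical.

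MIR17HG is transcribed as a single primary RNA, which the nuclear enzyme Drosha cuts into hairpins. Dicer then cuts each hairpin into a duplex of a 5p and a 3p strand, of which the guide is kept in an Argonaute protein and the passenger is mostly degraded. Transcription of the gene is driven by MYC and by E2F factors, and the cluster is often raised in colorectal tumours. Its guides fall into seed families, the seed being bases 2 to 8, with which a miRNA pairs to its targets. The miR-17 seed is known for repressing the cell cycle inhibitor p21.

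The 10 sequences are shown because the values below divide by seed and by arm. They are RefSeq's mature sequences, 22 or 23 bases long and matched by name for 10 of 10 members, in the order of the hairpins along the gene, 5′ to 3′, with the seed in capitals.
miR-17-5p: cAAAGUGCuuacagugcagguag
miR-17-3p: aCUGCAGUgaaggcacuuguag
miR-18a-5p: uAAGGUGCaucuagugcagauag
miR-18a-3p: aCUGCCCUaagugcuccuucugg
miR-19a-3p: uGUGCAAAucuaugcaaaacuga
miR-20a-5p: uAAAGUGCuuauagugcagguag
miR-20a-3p: aCUGCAUUaugagcacuuaaag
miR-19b-3p: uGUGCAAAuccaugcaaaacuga
miR-92a-1-5p: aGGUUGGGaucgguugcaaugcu
miR-92a-3p: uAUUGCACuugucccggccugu

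MIR17HG lies on the plus strand at chr13:91347687-91354577 in GRCh38.p14, the build of the RefSeq tables; the authors' counts were made on GRCh37.p5. The hairpins span 787 bases from the first base of miR-17 to the last base of miR-92a-1. The guides miR-17-5p and miR-20a-5p share the seed AAAGUGC and differ by 2 substitutions, C1U and C12U, counted from 1 at the 5′ end of miR-17-5p. MiR-18a-5p has a related seed that differs from that of miR-17-5p by A4G. The guides miR-19a-3p and miR-19b-3p share GUGCAAA and differ by the substitution U11C. MiR-92a-3p carries AUUGCAC. Of the members 8 come from 1 hairpin each, and 2, miR-19b-3p and miR-92a-3p, are also encoded by the paralogous cluster on the X chromosome.

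Library totals ran from 2591655 to 4706156 counts with ETBF and from 5243400 to 6522542 in controls, so every ETBF library was shallower than every control. Single values after thinning to equal depth are given below only for miR-20a-5p, miR-17-5p and miR-92a-1-5p. The ranges given over all alternatives include the thinned fit. The cluster took 1.71% to 2.01% of the counts of the ETBF libraries and 1.23% to 1.60% of those of the controls. Levels are given as CPM, a miRNA's counts scaled to the library total with TMM factors. The 5 epithelial markers summed to 10700 to 12400 CPM with ETBF and 13700 to 14900 CPM in controls, 2 of the 4 tested being lower and 2 not passing. Of 5 blood markers 3 were tested and 1, miR-451a, rose; they summed to 66.3 to 100 CPM with ETBF and 52.7 to 62.3 CPM in controls. Over all 480 tested miRNAs, 19.8% were called higher and 14.6% lower. The 4 stromal and muscle markers, 2 of them tested and 0 passing, summed to 229 to 285 CPM with ETBF and 257 to 269 CPM in controls. The 3 neuronal and liver markers, 2 of them tested and 0 passing, summed to 7540 to 9610 CPM with ETBF and 7790 to 9790 CPM in controls. Nearly all of that sum was the neuronal miR-9-5p, at a mean of 8492 CPM with ETBF and 8652 CPM in controls, while the liver miR-122-5p had 87 counts over the 8 libraries. The neuronal miR-124-3p had 0 counts in all 8, which allows 0.447 to 1.12 CPM (3 counts, counting error only). The part of depth and of these markers in the results below was not tested beyond the thinning.

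Levels of the members ran from a mean of 8579 CPM for miR-92a-3p with ETBF down to 6.74 CPM for miR-20a-3p. They are not divided by length, since the members are 22 or 23 bases long. MiR-92a-3p was the most abundant member, with 7975 to 9222 CPM with ETBF and 7835 to 9667 CPM in controls, followed by miR-20a-5p, miR-17-5p and miR-19b-3p, and none of these 4 overlapped its neighbour in either group. Next came miR-19a-3p and miR-18a-5p, which overlapped in the controls (93.3 to 125 CPM and 64.0 to 96.8 CPM) but not with ETBF. The passenger strands were the lowest: miR-18a-3p, miR-92a-1-5p, miR-17-3p and miR-20a-3p lay between 4.12 and 28.4 CPM, and in the controls miR-17-3p overlapped both miR-92a-1-5p and miR-20a-3p. With ETBF miR-18a-3p overlapped miR-92a-1-5p, and miR-17-3p overlapped miR-20a-3p. The plot of levels by library shows this order.

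**Figure D1:**
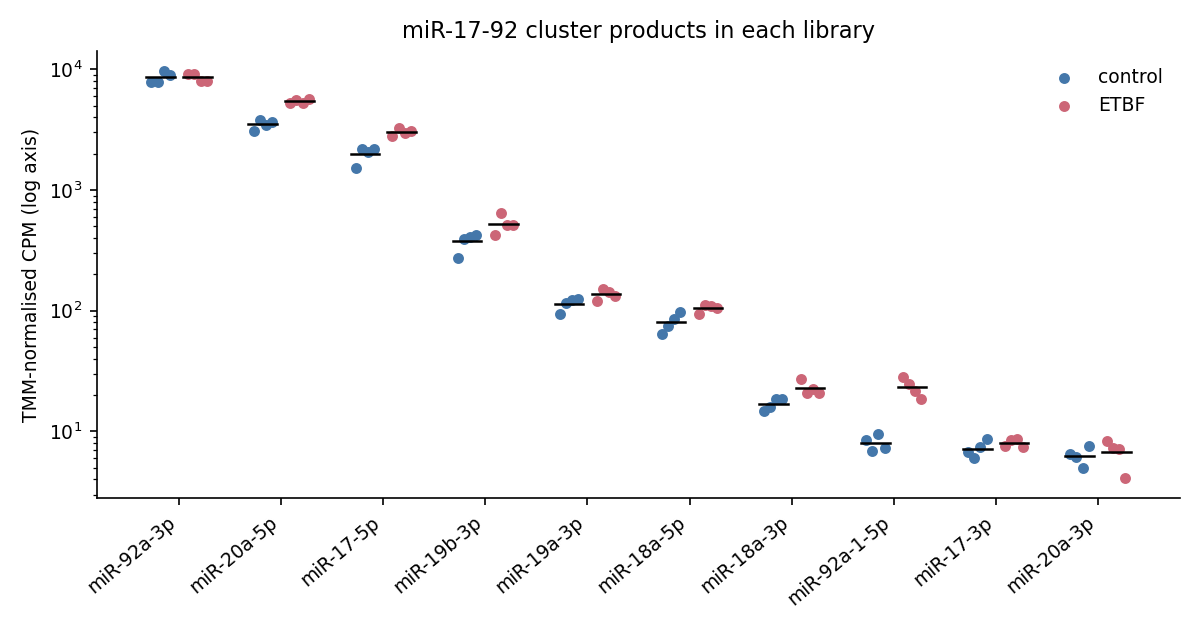
TMM-normalised CPM of the 10 cluster members (log axis) in the 4 control and 4 ETBF libraries; each point is a library and each bar a group mean. The ETBF points lie above all control points for miR-20a-5p, miR-17-5p, miR-18a-3p and miR-92a-1-5p, while those of miR-92a-3p, the most abundant member, overlap.

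With ETBF, 6 of the 10 members rose, 0 fell and 4 did not pass. Across all 480 tested miRNAs 19.8% were called higher and 14.6% lower (edgeR quasi-likelihood test, adjusted over the 480). The median log2 fold change was 0.41 over the 10 members and 0.01 over all tested miRNAs. The rise was carried by both guides of the miR-17 seed, by miR-19b-3p, by both strands of miR-18a and by the passenger miR-92a-1-5p, and the abundant miR-92a-3p was at -0.00 (SE 0.08). In 4 members all ETBF libraries lay above all controls, a pattern seen for 18.1% of all tested miRNAs (33.8% did not overlap in either direction). These counts are a description of the cluster. With upper-quartile scaling 4 members rose instead of 6, the calls of both miR-18a strands being lost (adjusted p = 0.0536 and 0.0539), and the calls over all tested miRNAs split into 71 higher and 89 lower instead of 95 and 70.

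The guides of the miR-17 seed had the largest fitted fold changes among the cluster's guides. MiR-20a-5p, which represses cell cycle and transforming growth factor beta signalling genes, stood at 5232, 5605, 5301 and 5686 CPM in ETBF replicates 1 to 4 and at 3090, 3820, 3487 and 3685 CPM in the controls. The lowest ETBF library was well above the highest control, and the log2 fold change was 0.63 (SE 0.07, adjusted p = 5.88e-06), a 1.55-fold rise. MiR-17-5p, the first guide of the transcript, stood at 2786, 3268, 2949 and 3064 CPM with ETBF and at 1513, 2192, 2074 and 2177 CPM in the controls. Its groups did not overlap either, with control replicate 1 the lowest of the 8, and it rose 1.52-fold (log2 fold change 0.60, SE 0.10, adjusted p = 0.000258). The calls of both guides held without any 1 library, with log2 fold changes of 0.58 to 0.66 for miR-20a-5p and 0.49 to 0.65 for miR-17-5p, and after thinning to equal depth, at 0.65 and 0.62.

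These 2 guides kept close proportions to each other. The count of miR-20a-5p was 1.81 ± 0.0727 times that of miR-17-5p with ETBF and 1.79 ± 0.170 times in controls (SD, n = 4 each), with overlapping groups. Their summed level was 8018, 8874, 8251 and 8750 CPM with ETBF and 4602, 6012, 5561 and 5862 CPM in controls. The ETBF mean was 1.54 times the control mean, and no control library reached the lowest ETBF library.

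MiR-18a, whose hairpin is bound by the RNA-binding protein hnRNP A1 during processing, rose on both strands. Its guide miR-18a-5p stood at 94.8, 111, 109 and 105 CPM with ETBF and at 64.0, 75.2, 84.8 and 96.8 CPM in controls. Control replicate 4 lay above ETBF replicate 1, so the groups overlapped, and the log2 fold change was 0.38 (SE 0.12, adjusted p = 0.0169). The strand miR-18a-3p stood at 27.1, 20.9, 22.3 and 21.0 CPM with ETBF and at 14.7, 15.8, 18.4 and 18.6 CPM in controls. Its groups did not overlap, and it rose by 0.44 on the log2 scale (SE 0.13, adjusted p = 0.0160). Both calls depended on single libraries. Dropping ETBF replicate 2 gave an adjusted p of 0.0780 for miR-18a-5p, dropping ETBF replicate 3 gave 0.0670, dropping control replicate 1 gave 0.0507, and dropping control replicate 2 gave 0.0635. For miR-18a-3p the adjusted p was 0.0887 with ETBF replicate 1 dropped, 0.0589 with control replicate 2 dropped and 0.0620 with no filter on low counts.

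In lymphoma models the miR-19 guides carry most of the cluster's tumour-promoting activity; here miR-19b-3p rose and miR-19a-3p did not pass. MiR-19b-3p stood at 425, 651, 518 and 518 CPM with ETBF and at 272, 396, 405 and 426 CPM in controls. ETBF replicate 2 was the highest library, ETBF replicate 1 lay just under control replicate 4, and the log2 fold change was 0.49 (SE 0.14, adjusted p = 0.00953). Without ETBF replicate 2 it was 0.35 and the call was lost (adjusted p = 0.0631). MiR-19a-3p stood at 120, 152, 142 and 132 CPM with ETBF and at 93.3, 116, 122 and 125 CPM in controls. Its groups overlapped and it did not pass (log2 fold change 0.26, SE 0.11, 95% interval 0.03 to 0.48, adjusted p = 0.0736).

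The proportion of the miR-19 guides, which differ by 1 base, did not overlap between the groups, though by a narrow margin. MiR-19b-3p had 3.55 to 4.28 times the counts of miR-19a-3p with ETBF and 2.92 to 3.42 times in controls, without overlap. No test was made of this ratio. Of the ratios of 5p to 3p counts in 138 hairpins, given below, 36.2% did not overlap either. MiR-19b-3p is also made from miR-19b-2 on the X chromosome, and the passenger specific to that hairpin, miR-19b-2-5p, had 0 counts in all 8 libraries. Their summed level was 545 to 804 CPM with ETBF and 365 to 551 CPM in controls, where ETBF replicate 1 lay within the control range.

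MiR-92a-3p, which is known for repressing integrin alpha 5 in endothelial cells, did not pass. It stood at 9080, 9222, 7975 and 8038 CPM with ETBF and at 7835, 7885, 9667 and 9010 CPM in controls. The groups overlapped throughout, and the 95% interval of the log2 fold change ran from -0.18 to 0.17 (adjusted p = 0.973). Over the alternatives it ran from -0.09 with upper-quartile scaling to 0.06 without control replicate 3.

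The passenger miR-92a-1-5p had the largest fitted fold change of the cluster. It was counted 50 to 132 times with ETBF and 39 to 50 times in the deeper control libraries. Its level was 28.4, 24.9, 21.8 and 18.7 CPM in ETBF replicates 1 to 4 and 8.55, 6.87, 9.50 and 7.31 CPM in the controls. Even ETBF replicate 4, the shallowest library, stood well above the highest control. The rise was 2.96-fold (log2 fold change 1.56, SE 0.16, adjusted p = 1.97e-06), and 13 of the 480 tested miRNAs rose more, larger falls not being counted. After thinning to 2591655 counts per library it was 1.61 (adjusted p = 7.76e-06).

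The passengers miR-17-3p and miR-20a-3p did not pass. MiR-17-3p stood at 7.52, 8.46, 8.73 and 7.49 CPM with ETBF and 6.76, 5.99, 7.41 and 8.65 CPM in controls (log2 fold change 0.16, SE 0.18, adjusted p = 0.552). MiR-20a-3p stood at 8.38, 7.28, 7.19 and 4.12 CPM with ETBF and 6.56, 6.16, 4.94 and 7.61 CPM in controls (0.13, SE 0.22, adjusted p = 0.694). Both rested on 11 to 58 counts per library, and their 95% intervals, -0.24 to 0.55 and -0.35 to 0.60, include changes as large as that of miR-19b-3p. Of the remaining strands of the same hairpins, miR-19b-1-5p had 5 to 18 counts per library and did not pass (0.79, SE 0.41, adjusted p = 0.154). MiR-19a-5p had 8 counts over the 8 libraries and was not tested.

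**Figure D2:**
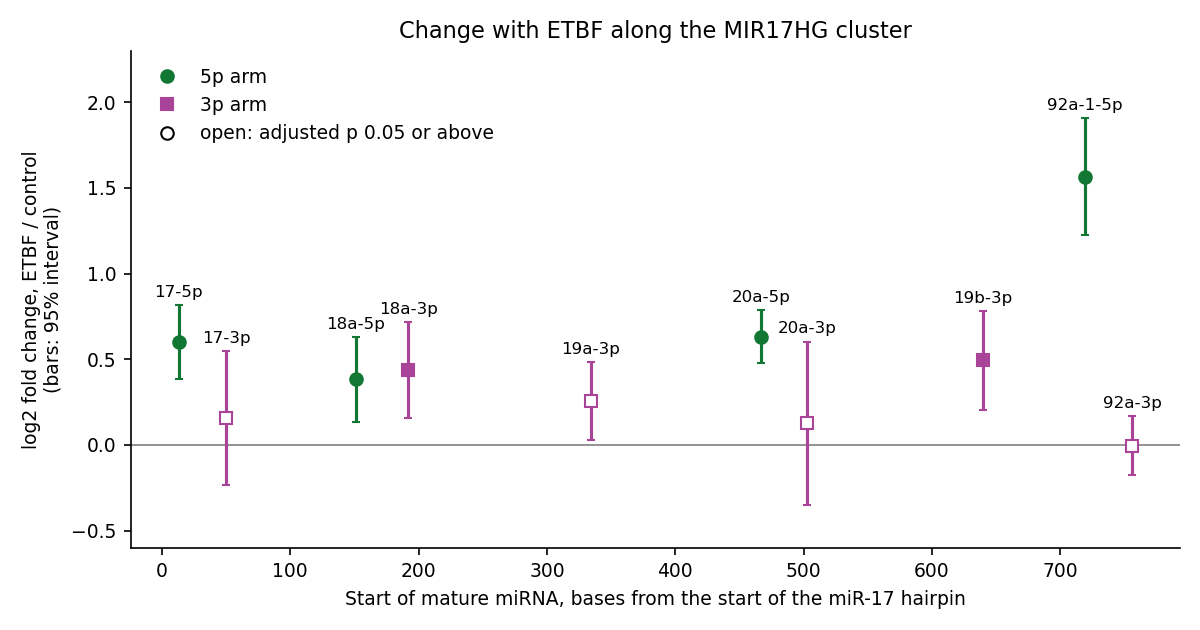
Log2 fold change of each member, ETBF over control (edgeR, bars 95% interval), against the start of the mature miRNA in bases from the start of the miR-17 hairpin; circles are 5p arms, squares 3p arms, and open symbols did not pass. The arms of the last hairpin lie farthest from each other, with miR-92a-1-5p at 1.56 and miR-92a-3p at -0.00.

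Because the members are encoded in 1 transcript, each was also set against miR-92a-3p of the same library, a ratio that needs no library scaling. MiR-92a-3p is also encoded on the X chromosome, so its counts may not all come from this transcript. Its own level did not pass (log2 fold change -0.00), so these ratios largely restate the levels above and are not separate results. All of them share 1 denominator. Relative to miR-92a-3p 4 of the other 9 members rose, namely miR-20a-5p, miR-17-5p, miR-18a-3p and miR-92a-1-5p, and 0 fell; of all 479 miRNAs set against it, 20.7% were called, 13.4% higher and 7.31% lower (limma, adjusted over the 479). There were 0.576, 0.608, 0.665 and 0.707 counts of miR-20a-5p per count of miR-92a-3p with ETBF and 0.394, 0.484, 0.361 and 0.409 in controls, without overlap. The log2 difference was 0.64 (SE 0.14, adjusted p = 0.0126). For miR-17-5p the ETBF libraries averaged 0.353 ± 0.0327 and the controls 0.232 ± 0.0367 (SD, n = 4 each), a log2 difference of 0.61 (SE 0.15, adjusted p = 0.0199).

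The passenger miR-92a-1-5p had the smallest p of the members in this test, at 1.53 (SE 0.15, adjusted p = 0.000166), and kept its call without any 1 library. MiR-18a-3p passed at 0.43 (SE 0.13, adjusted p = 0.0401), while miR-19b-3p at 0.50 (SE 0.18, adjusted p = 0.0758), miR-18a-5p at 0.40 (SE 0.14, adjusted p = 0.0771) and miR-19a-3p at 0.26 (SE 0.14, adjusted p = 0.220) did not. Leaving out ETBF replicate 3, ETBF replicate 4 or control replicate 1 left 2 of the 4 calls in each case. For miR-17-5p the adjusted p was 0.0551, 0.0618 and 0.0601 when ETBF replicate 2, 3 and 4 were dropped in turn, and 0.0518 when control replicate 1 was dropped. The miR-18a-3p call was lost in 7 of the 8 such fits, all but the one lacking ETBF replicate 2. With miRNAs at a mean of at least 10 CPM only, 6 members passed, miR-18a-5p and miR-19b-3p being added (adjusted p = 0.0361 and 0.0258).

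The makeup of the cluster's counts differed between the groups, described here with no test. MiR-92a-3p made up 45.7% to 51.0% of the members' summed counts with ETBF and 54.3% to 60.9% in controls. MiR-20a-5p made up 29.4% to 32.3% with ETBF and 22.0% to 26.3% in controls, and miR-17-5p 15.6% to 17.4% and 11.7% to 15.1%. None of these 3 shares overlapped between the groups. For comparison, the CPM of 33.8% of all 480 tested miRNAs did not overlap in either direction, and no such rate was computed for shares. The share of miR-92a-3p was lower with ETBF although its CPM did not pass (log2 fold change -0.00). MiR-19b-3p was next, with 2.95% ± 0.425 with ETBF and 2.53% ± 0.295 in controls. The other 6 members together stayed under the share of miR-19b-3p in every library. Of those 6 only miR-92a-1-5p did not overlap, at 0.106% to 0.159% with ETBF and 0.047% to 0.0663% in controls. The shares are parts of the same sum, so they do not change independently of each other.

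The miR-17 seed is also made at other loci. RefSeq lists 8 mature miRNAs with the seed AAAGUGC, of which 5 were tested, and all 5 rose, against 19.8% called higher among all tested miRNAs: the 2 guides of MIR17HG, miR-93-5p and miR-106b-5p from the miR-106b-25 cluster within MCM7 on chromosome 7, and miR-106a-5p from the X-linked cluster. None of the 5 tested miRNAs with the seed AUUGCAC passed, against 34.4% called in either direction among all tested miRNAs. Their sequences are shown to compare the bases outside the seed, first those that share a seed with miR-17-5p and then those that share one with miR-92a-3p.
miR-93-5p: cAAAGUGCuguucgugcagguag
miR-106b-5p: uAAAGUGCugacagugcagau
miR-106a-5p: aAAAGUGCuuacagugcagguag
miR-25-3p: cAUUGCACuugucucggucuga
miR-92b-3p: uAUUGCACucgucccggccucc
miR-32-5p: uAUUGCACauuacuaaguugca
miR-363-3p: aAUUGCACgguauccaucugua

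MiR-93-5p averaged 3066 ± 160 CPM with ETBF against 2218 ± 342 CPM in controls, and miR-106b-5p 591 ± 42.2 CPM against 414 ± 40.2 CPM (SD, n = 4 each), with no overlap for either. The log2 fold changes were 0.47 (SE 0.10, adjusted p = 0.00121) and 0.51 (SE 0.08, adjusted p = 0.000200). Relative to miR-92a-3p they were at 0.48 and 0.52 (limma adjusted p = 0.0445 and 0.0425). MiR-106a-5p was far lower, averaging 7.47 ± 1.19 CPM with ETBF against 4.82 ± 1.05 CPM in controls, and its log2 fold change of 0.64 (SE 0.22, adjusted p = 0.0308) no longer passed in 10 alternatives, for example with DESeq2 (adjusted p = 0.0812) and whenever ETBF replicate 1, 2 or 3 or control replicate 1 or 4 was dropped (adjusted p between 0.0586 and 0.0923). It differs from miR-17-5p by C1A alone, so reads of the far more abundant miR-17-5p may be counted under its name; how such reads were assigned was not tested. The members held 69.8% ± 0.287 of all counts with this seed with ETBF and 67.7% ± 0.591 in controls.

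Among miRNAs with the miR-92a seed, miR-25-3p was at -0.13 (SE 0.07, adjusted p = 0.171), miR-92b-3p at 0.05 (SE 0.08), miR-32-5p at 0.03 (SE 0.10) and miR-363-3p at 0.03 (SE 0.40). With upper-quartile scaling miR-25-3p was at -0.22 and passed as lower (adjusted p = 0.0370). The other seed families of the cluster had no further tested miRNA: 2 further names carry the miR-18a seed and neither passed the filter, and the miR-19 seed is confined to miR-19a-3p and miR-19b-3p in the RefSeq table.

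**Figure D3:**
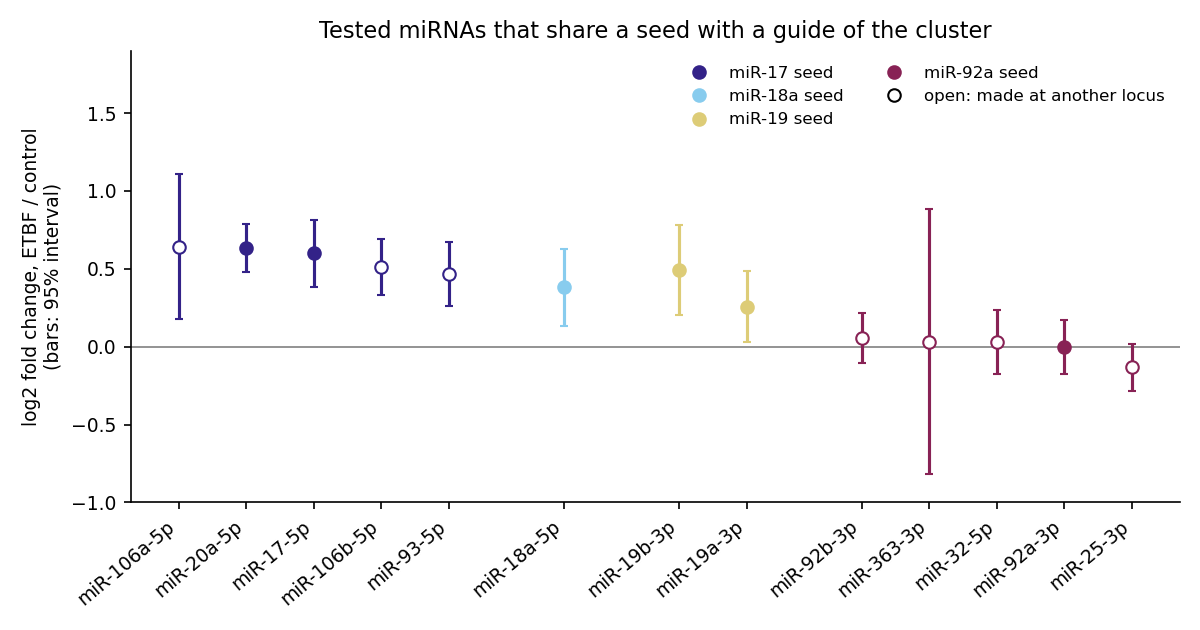
Log2 fold change, ETBF over control (edgeR, bars 95% interval), of the tested miRNAs that share a seed with a guide of the cluster; filled points are cluster members and open points are made at another locus. The 5 miRNAs with the miR-17 seed lie between 0.47 and 0.64, and the 5 with the miR-92a seed between -0.13 and 0.05.

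The 10 names specific to the paralogous X-linked cluster, which leave out miR-19b-3p and miR-92a-3p although it encodes them too, summed to 9.73 to 11.6 CPM with ETBF and 6.71 to 8.81 CPM in controls, and the miR-106b-25 cluster to 9050 to 9690 CPM and 8260 to 9330 CPM. Of all tested miRNAs 19.8% were called higher. Among the 10 names of the X-linked cluster, 2 were tested, 1 rose and 1 did not pass, and 5 had 0 counts in all libraries, among them miR-92a-2-5p, the passenger of the other hairpin that encodes miR-92a-3p. In the miR-106b-25 cluster 4 of 6 rose and 2 did not pass. Its miR-106b-3p was at 0.24 (SE 0.07, adjusted p = 0.0125). This 3p arm was the more abundant of its hairpin, averaging 742 CPM with ETBF against 591 CPM for miR-106b-5p (629 and 414 CPM in controls). Its call was lost with upper-quartile scaling (adjusted p = 0.142), with no filter (adjusted p = 0.170) and with ETBF replicate 3 dropped (adjusted p = 0.0519). MiR-93-3p was at -0.22 (SE 0.13, adjusted p = 0.229). In the last hairpin of the miR-106b-25 cluster, as in miR-92a-1, the passenger rose and the guide did not pass. The passenger miR-25-5p stood at 53.1, 52.4, 49.6 and 41.2 CPM with ETBF and at 21.1, 21.7, 24.0 and 19.8 CPM in controls (log2 fold change 1.19, SE 0.11, adjusted p = 9.22e-07).

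Both of these hairpins are printed 5′ to 3′ with the 2 arms in capitals, because their arm ratios differed between the groups. The miR-92a-1 hairpin lies at chr13:91351314-91351391 on the plus strand and the miR-25 hairpin at chr7:100093560-100093643 on the minus strand (GRCh38.p14, RefSeq).
miR-92a-1 hairpin: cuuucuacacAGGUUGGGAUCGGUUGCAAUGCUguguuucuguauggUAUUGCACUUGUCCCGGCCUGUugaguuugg
miR-25 hairpin: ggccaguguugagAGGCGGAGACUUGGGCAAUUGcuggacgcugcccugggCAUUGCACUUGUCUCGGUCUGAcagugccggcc

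The log2 ratio of 5p to 3p counts could be compared in 138 hairpins, 5 of them in the cluster (limma, adjusted over the 138). Of the 138, 36.2% changed, 12.3% with a higher and 23.9% with a lower ratio in ETBF libraries. In the cluster 1 of 5 passed, miR-92a-1, with 320, 370, 365 and 430 counts of the guide per count of the passenger with ETBF and 916, 1150, 1020 and 1230 in controls. The groups did not overlap, and the log2 ratio of 5p to 3p rose by 1.53 (SE 0.15, adjusted p = 6.06e-05). It kept its call in the 12 alternatives run on it, between 1.46 and 1.61. This is the same ratio of miR-92a-1-5p to miR-92a-3p as given above, here adjusted over the 138 hairpins, so it is not a separate result. The passenger of the X-linked copy had 0 counts, and the guide counted here can come from either copy.

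The other 4 hairpins did not pass. MiR-17 had 376 ± 29.8 guide counts per passenger count with ETBF and 280 ± 61.4 in controls (log2 difference 0.44, SE 0.17, adjusted p = 0.0648), and miR-20a had 878 ± 341 and 570 ± 113 (0.56, SE 0.25, adjusted p = 0.103; SD, n = 4 each). Without control replicate 2 the miR-17 ratio passed (0.57, adjusted p = 0.0214). For miR-18a, whose strands are the most even, the ratio was 4.67 ± 0.798 with ETBF and 4.72 ± 0.352 in controls (log2 difference -0.03, SE 0.16, 95% interval -0.39 to 0.32). For miR-19b-1 it was 0.28 (SE 0.33, adjusted p = 0.516).

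**Figure D4:**
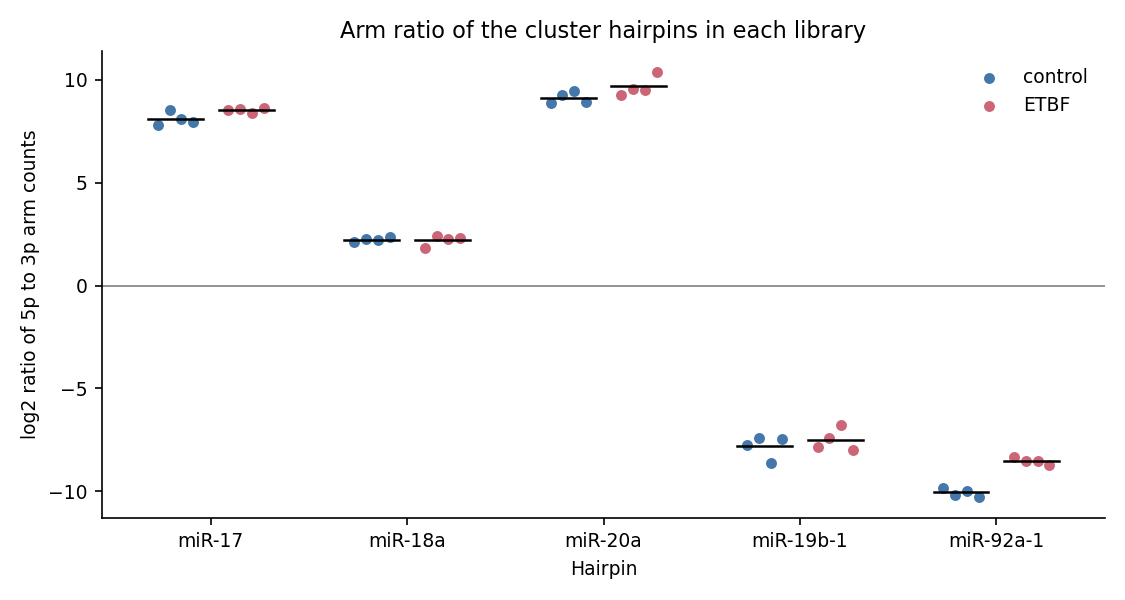
Log2 ratio of 5p to 3p arm counts of the 5 cluster hairpins with both arms tested, in the 4 control and 4 ETBF libraries; points are libraries and bars group means. MiR-17, miR-18a and miR-20a keep their 5p arm and miR-19b-1 and miR-92a-1 their 3p arm, and miR-92a-1 is the hairpin whose groups do not overlap.

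Among all 138 hairpins the less abundant arm gained on the more abundant one in 42 and lost in 8 of the 50 that passed. MiR-92a-1 was therefore 1 of 42, and 5 of the 138 hairpins had a larger gain of the less abundant arm than its 1.53. Outside the cluster the smallest p-values were those of miR-21 (-1.42 for 5p to 3p), miR-222 (2.32) and miR-128-1 (2.10), where the less abundant arm also gained. In the miR-106b-25 cluster the ratio of 5p to 3p rose by 1.31 for miR-25 (SE 0.14, adjusted p = 8.27e-05) and by 0.71 for miR-93 (SE 0.18, adjusted p = 0.0156), in the latter in favour of the guide miR-93-5p.

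**Figure D5:**
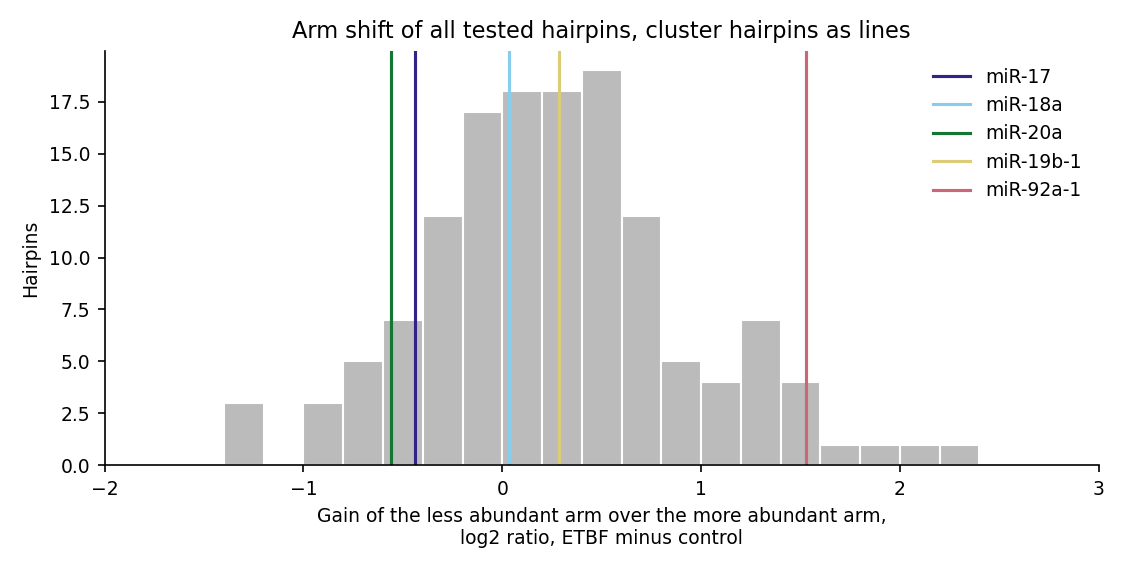
Gain of the less abundant arm over the more abundant arm with ETBF (log2 ratio, ETBF minus control) for all 138 tested hairpins as grey bars (number of hairpins), with the 5 cluster hairpins as coloured lines. MiR-92a-1 lies at 1.53, miR-18a and miR-19b-1 near the middle, and miR-17 and miR-20a at -0.44 and -0.56.

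A list of 20 miRNAs that MYC is known to repress was set beside the cluster, which MYC activates. Of the 19 tested, 5 rose, 6 fell and 8 did not pass, with a median log2 fold change of -0.07, against 19.8% called higher, 14.6% called lower and a median of 0.01 over all 480 tested miRNAs. Those that fell with the smallest p were miR-30d-5p (-0.62, SE 0.07, adjusted p = 3.3e-06) and miR-26a-5p (-0.49, SE 0.06, adjusted p = 1.87e-05), the latter a repressor of EZH2. Those that rose with the smallest p were miR-15a-5p (0.65, SE 0.10, adjusted p = 0.000147), which represses BCL2, and miR-29c-3p (0.67, SE 0.14, adjusted p = 0.00122), which represses collagen genes.

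By Pearson's correlation with miR-20a-5p over the 8 libraries, among 251 miRNAs outside these lists with a mean of at least 10 CPM, the nearest profiles were those of miR-7641 (r = 0.989), let-7a-2-3p (0.971), miR-30d-3p (0.967), miR-21-3p (0.965) and miR-503-5p (0.961). All 5 were higher with ETBF, and both groups enter the correlations, which are a description and share the gap between the groups. MiR-7641 is an entry that resembles ribosomal RNA, often read as a sign of RNA quality; it averaged 92.98 ± 10.2 CPM with ETBF against 12.6 ± 6.59 CPM in controls, and its part in the cluster's changes was not tested.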

How the data were processed

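The deposited files hold raw counts of reads per mature miRNA name, 1 file for each of the 8 libraries. Per the submitters' processing notes the authors used Trimmomatic, FastQC and featureCounts with GRCh37.p5; the versions, the aligner, the miRNA annotation and the handling of reads with several matches were not given in the sources used here. No member's counts shared a common divisor above 1, so the copies of miR-19b-3p and miR-92a-3p were not counted doubly in a fixed way. Members of near-identical sequence can share reads.

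Counts were fitted in R 4.3.3 with the quasi-likelihood test of edgeR 4.0.16 (TMM, filterByExpr at a minimum count of 10, 2 groups, Benjamini-Hochberg over 480 miRNAs, threshold 0.05, two-sided). The tested miRNAs held 99.96% or more of each library's counts. The SE was taken as the size of the log2 fold change over the root of its F statistic. Ratios of arms and ratios to miR-92a-3p were fitted with limma 3.58.1 on log2 counts after adding 0.5. Scripts were tested on simulated data. No within-group pair of libraries differed by sampling noise alone (chi-square per degree of freedom 23.6 to 146.7). Named miRNAs are all members, the strands of their hairpins, tested paralogs and seed relatives, 2 per direction of the MYC-repressed list, 5 of closest profile and 3 hairpins by arm ratio. The members and lists were chosen with earlier results of these data known. Sequences are RefSeq's; 417 of the 480 tested names matched. The alternatives were other scalings, filters and tools (DESeq2 1.42.0, limma-voom), removal of the GC trend, thinning, a replicate block and leaving out each library.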

Additional observations from a re-analysis of the deposited data

Results flagged for a closer look

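Of 76 groups of 4 library values examined, 2 held a library whose gap to its nearest neighbour was large for the group's range by Dixon's rule (0.879 and 0.844 of it), which chance gives in about 1 in 20 groups. For miR-93-5p, which shares its seed with miR-17-5p, control replicate 1 was at 1710 CPM and the other controls at 2350 to 2440 CPM; without it the log2 fold change was 0.36 and the call held. For the share of miR-17-5p in the cluster's counts, ETBF replicate 1 was at 15.6% and the other ETBF libraries at 17.1% to 17.4%.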

How the results depend on the processing

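The number of members called higher stayed between 4 and 7 in all alternatives and none was called lower; leaving out 1 library gave 4 to 6. The number of cluster hairpins with a changed arm ratio was 1 in all alternatives except without control replicate 2, where it was 2. The number of members changed relative to miR-92a-3p was 2 to 4 when 1 library was left out. With the replicate block it was 1, miR-92a-1-5p (miR-20a-5p and miR-17-5p both at adjusted p = 0.0722), and 49 instead of 99 over all tested miRNAs (58 to 74 when 1 library was left out). With the block 7 members were called higher, miR-19a-3p being added at 0.26 (adjusted p = 0.0475), and the miR-106a-5p call was lost (adjusted p = 0.0573). Replicate numbers showed no sign of pairing the libraries: same-numbered libraries correlated at -0.06 to 0.06 in their deviations, and no ETBF library correlated best with its own number. The labels do not state whether the libraries were paired, and such low correlations cannot show that they were not. Upper-quartile scaling moved the median of all tested miRNAs to -0.07 and the split of calls to 71 higher and 89 lower, against 95 and 70 with TMM. Members under about 10 CPM rest on few counts, which limits what can be seen for miR-17-3p and miR-20a-3p.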
